A study of Sus scrofa with 8 samples.

Results

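The RUNX family comprises RUNX1, RUNX2 and RUNX3, and these were examined together with CBFB, the gene of their shared partner subunit. The members were chosen by name, and each locus was the gene as placed by the pig RefSeq annotation plus 10 kb on either side. All 4 members were found among the 16298 protein-coding genes with a symbol. ChIP-seq of H3K27ac, a histone acetylation that marks promoters and enhancers in use, had been run on 2 pig cell types. The pgEpiSC libraries, numbered 1 and 4, came from pre-gastrulation epiblast stem cells (epiblast of embryonic day 10). Embryonic fibroblasts of day 30 gave the pEF libraries, numbered 1 and 2. No genotype or treatment is labelled for either type, and every H3K27ac library was paired with an input library of sonicated DNA. A shared or separate line, animal or culture is labelled for none of the libraries, so p-values measure only the spread between these libraries, which may be technical. The question was how the acetylation of these loci compares between the stem cells and the fibroblasts. The 2 types differ in developmental stage as well as in cell type, and these cannot be told apart.

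RUNX proteins are transcription factors whose runt domain binds DNA, and CBFB, which does not bind DNA itself, strengthens that binding and protects the complex from degradation. RUNX1 is known for its role in making blood stem cells, RUNX2 for driving bone and cartilage formation, and RUNX3 for T cell fates and sensory neurons. CBFB is made in most cell types, and the RUNX genes are read from alternative promoters at a distance from each other.

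The deposited lists give islands, which are stretches enriched in ChIP reads, and count the ChIP and input reads of each. They held 57790 to 74208 islands and 29679982 to 46383051 ChIP reads in islands. Islands of pEF were stronger across the genome: the median fold over input was 3.47 and 3.46 in pEF 1 and pEF 2 against 1.80 and 1.67 in pgEpiSC 1 and pgEpiSC 4. Islands covered 408 and 414 Mb in pgEpiSC 1 and pgEpiSC 4, against 273 and 275 Mb in pEF 1 and pEF 2. The median island was 4.8 and 4.2 kb long in pgEpiSC, against 3 and 3.2 kb in pEF. The part of this difference in the results at single loci was not tested, so ranks within each library are given beside the levels. Of 8 markers fixed for the pgEpiSC label, 7 were acetylated over a longer stretch in pgEpiSC and 0 in pEF (limma, adjusted p under 0.05; 0 in pEF at an unadjusted p under 0.05), and NANOG did not pass. Of 8 fibroblast markers, 5 were longer in pEF and 0 in pgEpiSC, also 0 unadjusted. PRRX1, THY1 and PDGFRB did not pass, and PDGFRB leaned to pgEpiSC (log2 fold change 0.18, pgEpiSC minus pEF). Of all genes, 31.9% were longer in pgEpiSC and 10.9% in pEF. In a bulk profile, fewer cells with a mark and less mark per cell cannot be told apart.

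RUNX1 carried far more acetylation in the fibroblasts. Acetylated length, the kb of the locus covered by islands, was 22.4 kb in pgEpiSC 1, 34.2 kb in pgEpiSC 4, 168.2 kb in pEF 1 and 155 kb in pEF 2, in a window of 283.8 kb. Both pEF libraries were thus high and both pgEpiSC libraries low, with no overlap. The means were 28.3 ± 8.32 kb in pgEpiSC and 162 ± 9.33 kb in pEF (SD, n = 2 libraries, as for every error below), a log2 fold change of -2.50 with SE 0.25 on the log2(kb + 1) scale (pgEpiSC minus pEF, limma, adjusted p = 0.0110). The call was lost without pEF 1 (limma, adjusted p = 0.0836) or without pEF 2 (limma, adjusted p = 0.0805). An exact permutation test of 2 against 2 libraries cannot go below p = 0.333, so all p-values here come from fits across all features.

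ChIP reads at RUNX1 differed more than length did. Reads were summed over each library's own islands at the locus, so reads outside them were not counted and the sums move with the length called, and were scaled to the reads in all islands of the library (CPM). The islands at the locus held 45.3 CPM in pgEpiSC 1 and 67.2 CPM in pgEpiSC 4, but 664 CPM in pEF 1 and 562 CPM in pEF 2. The groups did not overlap, and the pEF mean sum of 613 ± 72.0 CPM was 10.9 times the pgEpiSC mean sum of 56.3 ± 15.5 CPM, over 162 against 28.3 kb of islands. The log2 fold change was -3.47 with SE 0.27 (edgeR quasi-likelihood, adjusted p = 0.00368), and the call held without each library in turn (edgeR, adjusted p 0.00589 to 0.0209).

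The extra reads at RUNX1 came with both more islands and denser ones. Islands numbered 6 and 9 in pgEpiSC 1 and pgEpiSC 4, and 20 and 19 in pEF 1 and pEF 2. Reads per kb of island were 2.02 and 1.97 CPM in pgEpiSC against 3.95 and 3.63 CPM in pEF. These were not set against reads per kb over all islands, and pEF islands were stronger across the genome. Only 0 of 6 and 1 of 9 pgEpiSC islands reached a fold of 2 over input, against 15 of 20 and 14 of 19 in pEF. Over all islands of each library, 37.1% and 27.8% reached it in pgEpiSC and 84.7% and 85.6% in pEF. Among all genes of its own library, the share of the window acetylated put RUNX1 at percentile 23.3 and 30.5 in pgEpiSC and at percentile 95.3 and 94.4 in pEF. In kb, which also follows gene size, it stood at percentile 75.9 and 85.3 in pgEpiSC and ranked 56 and 79 of all genes in pEF. ChIP over input, summed over the locus, was 1.71 and 1.64 in pgEpiSC 1 and pgEpiSC 4, and 5.94 and 5.34 in pEF 1 and pEF 2. Below, 4 values in a row follow this order of libraries. By this measure RUNX1 stood at percentile 15.6 and 21.2 among the genes with islands in pgEpiSC. In pEF it stood only near the middle, at 49.5 and 46.2. Over the locus as a whole, its high standing in pEF was thus one of length. Its strongest single island, of 6, 9, 20 and 19, stood at percentile 62.6, 85.8, 97.5 and 96.8 of all islands by fold.

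RUNX2 was also more acetylated in pEF, in length and in ChIP reads. Acetylated length was 28.4 kb in pgEpiSC 1, 35.6 kb in pgEpiSC 4, 54.2 kb in pEF 1 and 55.8 kb in pEF 2, in a window of 266.7 kb. Both pEF libraries were above both pgEpiSC libraries. Among all genes of its own library, the share of the window acetylated put RUNX2 at percentile 29.6 and 33.1 in pgEpiSC. In pEF it stood at percentile 63.0 and 66.2. The means were 32.0 ± 5.09 and 55.0 ± 1.13 kb, a log2 fold change of -0.77 with SE 0.14 (limma, adjusted p = 0.0328). That length call was lost when any one library was left out, with an adjusted p from limma of 0.0748 without pgEpiSC 1, 0.0577 without pgEpiSC 4, 0.147 without pEF 1 and 0.157 without pEF 2.

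ChIP reads in each library's own islands at RUNX2 were 56.1 and 63.6 CPM in pgEpiSC 1 and pgEpiSC 4 and 248 and 225 CPM in pEF 1 and pEF 2. The groups did not overlap, and the pEF mean sum of 237 ± 16.4 CPM, over 55.0 kb, was 3.96 times the pgEpiSC mean sum of 59.8 ± 5.28 CPM, over 32.0 kb (log2 fold change -2.01, SE 0.16, edgeR, adjusted p = 0.00371). Reads per kb of island were 1.98 and 1.79 CPM in pgEpiSC against 4.58 and 4.03 CPM in pEF, again not set against all islands. The call on the sums held without each library (edgeR, adjusted p 0.00593 to 0.0294). ChIP over input at the locus was 1.73, 1.59, 7.21 and 6.05, and it ranked at percentile 16.3 and 16.5 in pgEpiSC and at 65.9 and 57.5 in pEF. The strongest RUNX2 island of each library had a fold of 3.05, 1.68, 15.9 and 11.2. These were different islands, at 53.4 to 55.2, 244 to 248, 249 to 253 and 121 to 129 kb from the lower-coordinate end of the gene.

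RUNX2 shares part of its window with SUPT3H, which encodes a subunit of a histone acetyltransferase complex. One end of SUPT3H lies 54.5 kb into RUNX2. SUPT3H itself was acetylated over 39.2, 43.6, 67.9 and 62.1 kb (log2 fold change -0.64, limma, adjusted p = 0.0257). Without the SUPT3H stretch, RUNX2 kept 23.6 and 30.1 kb in pgEpiSC and 49.0 and 50.4 kb in pEF, and its reads were 41.2 and 51.9 CPM against 220 and 201 CPM. The pEF libraries stayed above the pgEpiSC libraries in that remainder, 1.85 times in length and 4.52 times in reads.

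RUNX3 had no detected difference in length or reads with the 10 kb flank and all islands. Acetylated length was 18.8 kb in pgEpiSC 1, 13.6 kb in pgEpiSC 4, 17.8 kb in pEF 1 and 12.6 kb in pEF 2, in a window of 83.8 kb. The libraries of the 2 types interleaved, with means of 16.2 ± 3.68 and 15.2 ± 3.68 kb (log2 fold change 0.09, SE 0.27, limma, adjusted p = 0.834). Reads were 30.02, 23.0, 35.5 and 29.3 CPM, which overlapped too (log2 fold change -0.31, SE 0.23, edgeR, adjusted p = 0.326). With a 50 kb flank, length passed as longer in pgEpiSC (log2 fold change 0.84, limma, adjusted p = 0.0481). Differences of the order of these SEs were not detectable with 2 libraries per type.

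Island strength at RUNX3 differed in its raw values. ChIP over input was 1.40 and 1.28 in pgEpiSC and 3.19 and 3.82 in pEF, which did not overlap, but the ranks were low in all 4 libraries, at percentile 2.85, 2.65, 8.97 and 19.8. No pgEpiSC island of RUNX3 (3 in each library) reached a fold of 2, against 6 of 7 and 4 of 4 in pEF. Over all islands of each library, the share at 2-fold was 37.1% and 27.8% in pgEpiSC and 84.7% and 85.6% in pEF. With only islands of at least 2-fold, RUNX3 had 0 kb in both pgEpiSC libraries and 15.4 and 12.6 kb in pEF (limma, adjusted p = 0.00743), which turns the direction of the length comparison. With scaled input reads subtracted, its reads were also lower in pgEpiSC (log2 fold change -1.19, edgeR, adjusted p = 0.0427).

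CBFB, the partner subunit, had no detected difference in length or reads either. Acetylated length was 21.2 kb in pgEpiSC 1, 26.2 kb in pgEpiSC 4, 23.0 kb in pEF 1 and 18.8 kb in pEF 2, in a window of 86.5 kb. The libraries interleaved, with means of 23.7 ± 3.54 and 20.9 ± 2.97 kb (log2 fold change 0.17, SE 0.18, limma, adjusted p = 0.485). Reads were 70.3, 89.7, 81.3 and 69.1 CPM, with means of 80.0 ± 13.7 and 75.2 ± 8.63 CPM (log2 fold change 0.07, SE 0.19, edgeR, adjusted p = 0.787). The direction of the length comparison, which never passed the threshold, turned with no flank (-0.07), with a 50 kb flank (-0.53) and with libraries centred (-0.46).

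CBFB was the member with the strongest standing in the stem cells. Its ChIP over input was 2.48 and 2.59 in pgEpiSC and 5.19 and 5.20 in pEF. Within the libraries this was percentile 64.0 and 80.4 in pgEpiSC and percentile 37.6 and 43.9 in pEF, whereas the 3 RUNX genes stood at percentile 21.2 or lower in pgEpiSC. One island held most of the CBFB reads in pgEpiSC, with 1464 of 2087 reads (70.1%) in pgEpiSC 1 and 2649 of 3430 reads (77.2%) in pgEpiSC 4. In pEF the largest island held 1955 reads (56.6%) and 1597 reads (49.8%).

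**Figure D1:**
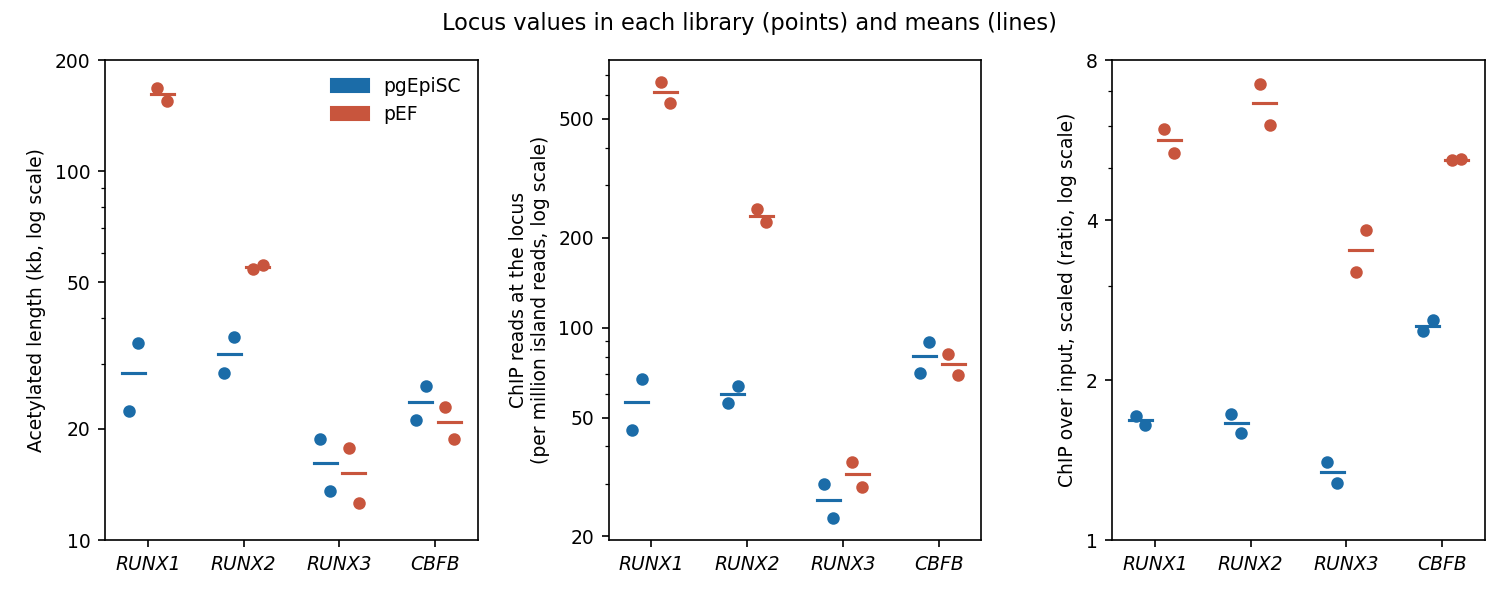
Values of the 4 loci in each library (points) with the mean per type (lines, n = 2), on log axes: acetylated length in kb, ChIP reads in CPM and ChIP over scaled input. At RUNX1 and RUNX2 the pEF points lie above the pgEpiSC points in all 3 panels, while at RUNX3 and CBFB they interleave in length and reads and part in ChIP over input.

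Counted over the members, 2 of 4 were longer in pEF and 0 of 4 in pgEpiSC (limma; 0 in pgEpiSC also at an unadjusted p under 0.05). Of all 16298 genes, 10.9% were called longer in pEF and 31.9% in pgEpiSC, and the median log2 fold change over all genes was 0.46. Centring each library on its median gene moved every fold change down by 0.63 and made the background 24.6% and 22.8%. RUNX1 (log2 fold change -3.13) and RUNX2 (-1.40) were called longer in pEF under that setting too, and the values of RUNX3 (-0.54) and CBFB (-0.46) then lay below 0 without passing. In ChIP reads, 2 of 4 members were higher in pEF and 0 of 4 in pgEpiSC (edgeR; 0 in pgEpiSC unadjusted and 0 by DESeq2), against 23.5% and 25.6% of 15344 genes. With islands of at least 2-fold only, the length test called 2 of 4 longer in pEF, RUNX1 and RUNX3, against 16.5% of genes, and RUNX2 no longer passed (log2 fold change -4.23, limma, adjusted p = 0.113).

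**Figure D2:**
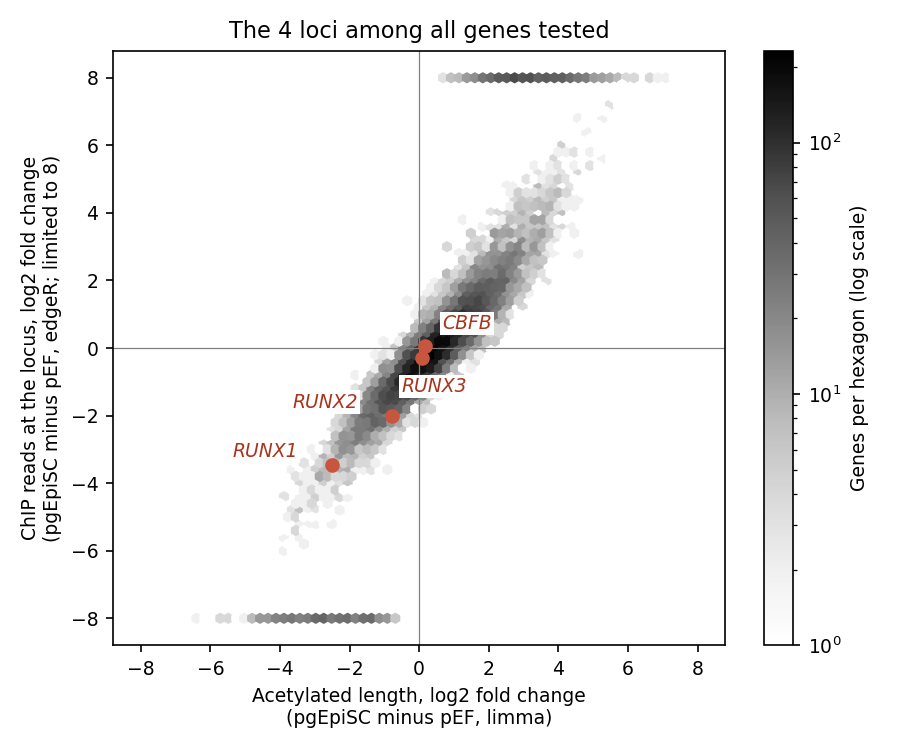
Log2 fold change (pgEpiSC minus pEF) of acetylated length (x axis, limma) against that of ChIP reads (y axis, edgeR) for all genes with both values, as hexagons shaded by the number of genes, with the 4 members as points. RUNX1 (-2.50, -3.47) and RUNX2 (-0.77, -2.01) lie in the pEF quadrant, and RUNX3 and CBFB lie near 0 on both axes; reads values beyond the axis limit, from genes with no reads in one type, are drawn at the limit.

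Per length of window, the order of the members differed between the types. In pgEpiSC the mean share of the window acetylated was 27.4 ± 4.09% at CBFB, 19.3 ± 4.39% at RUNX3, 12.0 ± 1.91% at RUNX2 and 9.97 ± 2.93% at RUNX1. Of these neighbours, RUNX2 and RUNX1 overlapped between libraries. In pEF the order was RUNX1 at 56.9 ± 3.29%, CBFB at 24.2 ± 3.43%, RUNX2 at 20.6 ± 0.424% and RUNX3 at 18.1 ± 4.39%. There, RUNX1 stood clear of the rest, and the spreads of RUNX2 and RUNX3 overlapped.

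**Figure D3:**
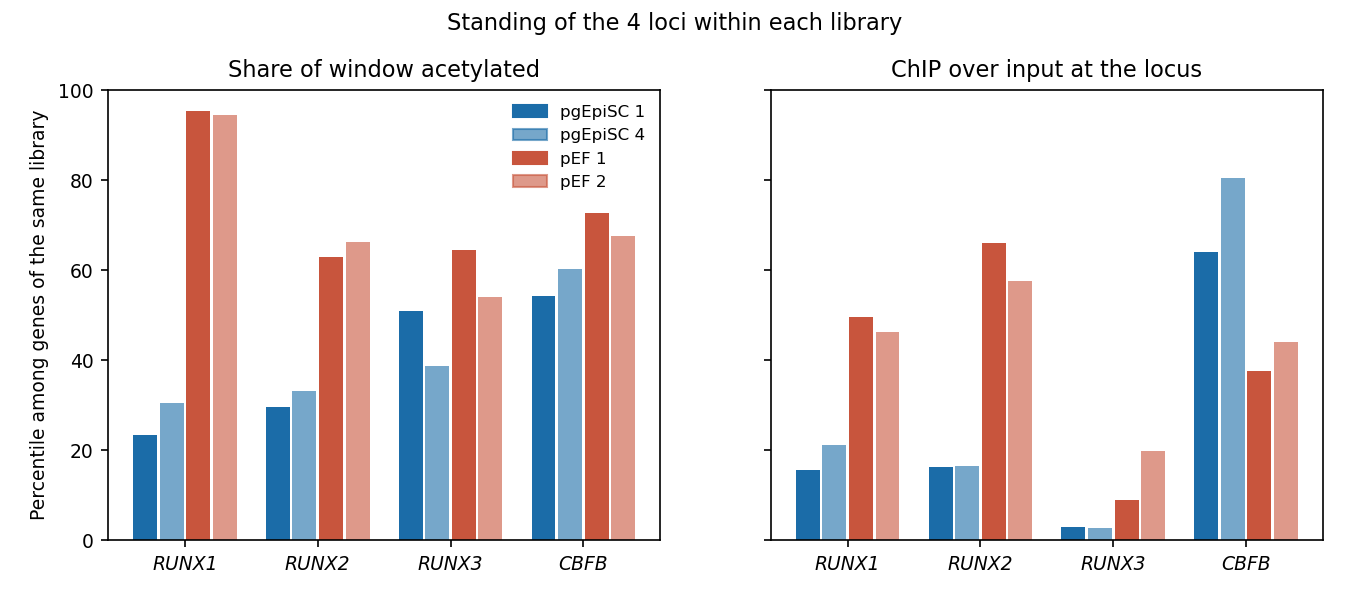
Percentile of each member among the genes of the same library, for the share of the window acetylated (left) and for ChIP over input at the locus, among genes with islands (right); 1 bar per library. RUNX1 moves from 23.3 and 30.5 in pgEpiSC to 95.3 and 94.4 in pEF in the left panel, and CBFB is the only member whose pgEpiSC bars are the taller ones in the right panel.

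The islands were placed on the loci by distance from the lower-coordinate end of each gene, because the strand was not used here and starts could not be told from ends. Overlapping islands (1 bp or more) of any libraries were joined into regions, 45 in all at the member loci. Of these, 11 were shared by all 4 libraries, 20 were found in both pEF libraries only and 3 in both pgEpiSC libraries only. Across the genome, 17.7% of 101305 regions were found in both pEF libraries only and 21.9% in both pgEpiSC libraries only. RUNX1 had 10 of the pEF-only regions, RUNX2 had 7, RUNX3 had 2 and CBFB had 1.

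**Figure D4:**
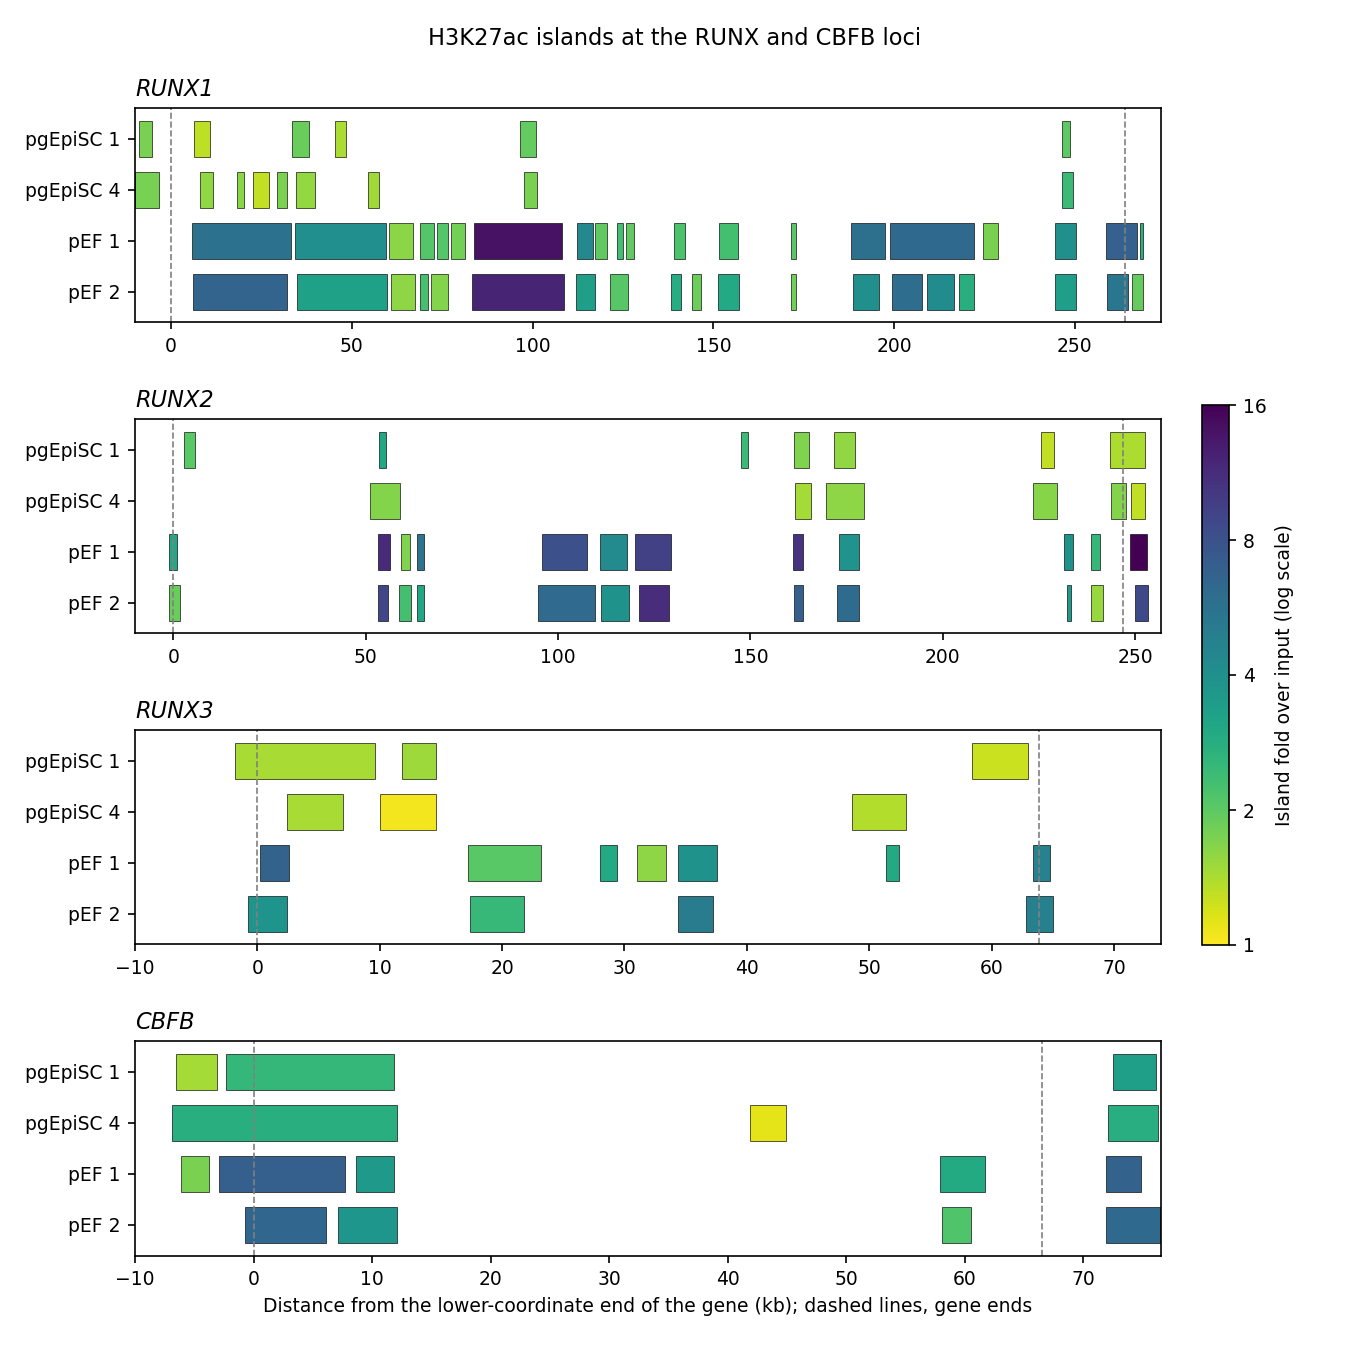
Islands of each library (boxes, 1 row per library) along the 4 loci, against the distance in kb from the lower-coordinate end of the gene, coloured by fold over input on a log scale; dashed lines mark the gene ends. The darkest boxes at RUNX1 are the pEF islands at 83.2 to 109 kb, RUNX2 has a pEF-only cluster from 94.8 to 129 kb, and the island around the lower end of CBFB is present in all 4 rows.

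Of the 11 shared regions, 5 had fewer reads in pgEpiSC and 0 had more (edgeR; 0 more also unadjusted and by DESeq2), while 23.4% and 22.7% of all 20498 shared regions were called higher in pEF and in pgEpiSC. The 5 were all 4 shared regions of RUNX1 and 1 of the 4 at RUNX2. The sums below cover each library's own islands, so covered length is given beside them.

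The strongest region of RUNX1 lay 83.2 to 109 kb from the lower end, on chromosome 13 from 198455001 to 198480400 as the lists number positions. It held 361 reads over 4.6 kb in pgEpiSC 1, 390 over 3.6 kb in pgEpiSC 4, 10383 over 24.4 kb in pEF 1 and 10106 over 25.4 kb in pEF 2. Reads per kb covered were 78.5 and 108 against 426 and 398, so the pEF islands were both wider and denser (log2 fold change -4.34, SE 0.21, edgeR, adjusted p = 0.00130). In pEF this island alone held 36.8% and 38.7% of the RUNX1 reads and ranked 181 and 273 among all islands of its library by reads. Its fold over input was 14.1 and 12.1 in pEF and 1.95 and 1.75 in pgEpiSC.

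The other shared RUNX1 regions followed the same direction. The region from 5.77 to 33.2 kb had 194, 899, 4515 and 5121 reads over 4.4, 12.8, 27.4 and 26.2 kb (log2 fold change -2.80, SE 0.63, edgeR, adjusted p = 0.0194), and its log2 fold change was -2.14 without pgEpiSC 1 and -4.05 without pgEpiSC 4. The region from 33.4 to 59.8 kb had 431, 556, 2589 and 2625 reads over 7.8, 8.2, 25.2 and 25.0 kb (log2 fold change -1.99, SE 0.19, edgeR, adjusted p = 0.00224). Both were wider in each pEF library than in either pgEpiSC library. A weaker region from 244 to 250 kb had 152, 215, 663 and 684 reads over 2.2, 2.8, 5.8 and 5.8 kb (log2 fold change -1.47, SE 0.28, edgeR, adjusted p = 0.0127), and its call was lost without pgEpiSC 1 (edgeR, adjusted p = 0.0947) or without pgEpiSC 4 (edgeR, adjusted p = 0.0770).

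Further pEF-only islands lay in other stretches of RUNX1. The region from 199 to 222 kb held 102 and 61.9 CPM in pEF 1 and pEF 2, and the region next to it, from 188 to 198 kb, held 37.5 and 19.4 CPM. Around the upper gene end, from 259 to 269 kb, pEF held 34.1 and 25.1 CPM. No pgEpiSC library had an island in any of these. The single region seen in both pgEpiSC libraries only lay outside the gene, from -10.03 to -3.24 kb, with 6.94 and 13.4 CPM and folds of 1.74 and 1.77.

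The pgEpiSC islands at RUNX1 were also set against the pEF islands, which covered 59.3% and 54.6% of the window. Of the bases acetylated in pgEpiSC 1, 80.4% and 78.6% lay in islands of pEF 1 and pEF 2, and of those in pgEpiSC 4, 80.2% and 79.6%. In the other direction, 10.7% to 17.5% of the pEF bases lay in pgEpiSC islands. Overlap between libraries as a Jaccard index (shared over joint bases) was 0.374 between the pgEpiSC libraries, 0.802 between the pEF libraries and 0.104 to 0.168 across types. Overlap within pgEpiSC was thus lower than within pEF, and the pgEpiSC 1 and pgEpiSC 4 islands at this locus were weak in both.

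At RUNX2 the pEF reads gathered in a cluster that pgEpiSC lacked. The region from 94.8 to 110 kb, on chromosome 7 from 40201401 to 40216200, held 67.9 and 59.2 CPM in pEF with folds of 8.15 and 6.17. The region from 120 to 129 kb held 54.7 and 53.0 CPM with folds of 9.38 and 11.2, and between them the region from 111 to 118 kb held 17.4 and 18.2 CPM. No pgEpiSC island touched these 3 regions.

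The shared RUNX2 region at the upper gene end was narrower and denser in pEF than in pgEpiSC. Across the genome, the median pEF island was also shorter and stronger. The region from 243 to 253 kb had 439 reads over 9.2 kb in pgEpiSC 1, 461 over 7.6 kb in pgEpiSC 4, 1537 over 4.4 kb in pEF 1 and 1119 over 3.2 kb in pEF 2. Reads per kb were 47.7 and 60.7 against 349 and 350, and the log2 fold change of the sums was -1.14 with SE 0.28 (edgeR, adjusted p = 0.0265). The call was lost without pgEpiSC 1, pgEpiSC 4 or pEF 1 (edgeR, adjusted p 0.0540 to 0.147). The other 3 shared regions of RUNX2 did not pass: from 51.0 to 61.8 kb at the end of SUPT3H (covering 1.8, 7.8, 5.4 and 5.8 kb, log2 fold change -1.02, edgeR, adjusted p = 0.0596; DESeq2, adjusted p = 0.0257), from 161 to 166 kb (3.8, 4.2, 2.6 and 2.4 kb, -0.73, edgeR, adjusted p = 0.107) and from 170 to 179 kb (5.6, 9.8, 5.2 and 5.6 kb, -0.20, edgeR, adjusted p = 0.713).

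Islands of RUNX2 overlapped across types more than those of RUNX3. The Jaccard index at RUNX2 was 0.517 within pgEpiSC, 0.803 within pEF and 0.153 to 0.185 across types. At RUNX3 it was 0.296 within pgEpiSC, 0.551 within pEF and 0 to 0.121 across types. RUNX3 thus had about as many acetylated kb in both types, with little overlap across types and low overlap within pgEpiSC too. The part of weak pgEpiSC islands in this was not tested.

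The only region of RUNX3 shared by all 4 libraries lay at its lower end, from -1.80 to 9.60 kb, on chromosome 6 from 82529401 to 82540800. It held 562 reads over 11.4 kb in pgEpiSC 1, 303 over 4.6 kb in pgEpiSC 4, 338 over 2.4 kb in pEF 1 and 366 over 3.2 kb in pEF 2 (log2 fold change 0.78, edgeR, adjusted p = 0.217). The pEF islands were thus short and dense and the pgEpiSC islands broad and thin, with folds of 6.78 and 3.83 against 1.44 and 1.43. By their medians, pEF islands were also shorter and stronger across the genome. Within the gene, both pEF libraries had islands from 17.2 to 23.2 kb and from 34.4 to 37.6 kb, the latter with folds of 3.92 and 5.09. Both pgEpiSC libraries, but no pEF library, had a weak island from 9.998 to 14.6 kb, with folds of 1.495 and 1.06. The pgEpiSC 4 island there had a deposited FDR against input of 0.187. It is counted in the lengths and regions above, as no FDR limit was applied.

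CBFB was acetylated at much the same places in all 4 libraries. Its main region ran across the lower end, from -6.92 to 12.1 kb, on chromosome 6 from 27677401 to 27696400. It held 1664 reads over 17.6 kb in pgEpiSC 1, 2649 over 19 kb in pgEpiSC 4, 2475 over 16.2 kb in pEF 1 and 2174 over 11.8 kb in pEF 2, which interleave (log2 fold change 0.29, SE 0.22, edgeR, adjusted p = 0.329). The second shared region, from 71.9 to 76.5 kb, lies past the upper end of CBFB and at an end of its neighbour C6H16orf70 (covering 3.6, 4.2, 3.0 and 4.6 kb, log2 fold change -0.20, edgeR, adjusted p = 0.531). Without the stretch of that neighbour, CBFB had 17.6, 22, 20 and 14.2 kb. The Jaccard index was 0.809 within pgEpiSC, 0.620 within pEF and 0.552 to 0.687 across types, the last range being above that of each RUNX gene.

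Gene ends, where promoters can lie, were also compared. Of the 8 ends of the 4 genes, 5 had an island within 2 kb in both pEF libraries and 2 in both pgEpiSC libraries, against 48.7% and 54.1% of all gene ends. Ends with an island in both libraries of 1 type and none of the other numbered 2 for pEF and 0 for pgEpiSC, against 5.71% and 11.2% of all ends. Within 0.5 kb they numbered 3 for pEF and 1 for pgEpiSC, against 4.95% and 10.4% of all ends. Within 5 kb they numbered 1 for pEF and 0 for pgEpiSC, against 6.19% and 11.3%, so the count depends on the window. The 2 pEF ends within 2 kb were the upper end of RUNX1, with folds of 6.85 and 5.41 in pEF, and the lower end of RUNX2, with folds of 3.03 and 1.88. The lower end of CBFB had an island in all 4 libraries, with folds of 2.52 and 2.80 in pgEpiSC and 6.95 and 6.51 in pEF. Both RUNX3 ends had an island in both pEF libraries and in pgEpiSC 1 but not in pgEpiSC 4. The upper end of RUNX2 had one in both pgEpiSC libraries and in pEF 1, and the lower end of RUNX1 and the upper end of CBFB had none in any library.

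The nearest genes did not all share the direction of the members. CLIC6, the nearest gene below RUNX1 at 68.0 kb, had 4, 15, 11 and 6.2 kb (limma, adjusted p = 0.993). SETD4, the nearest named protein-coding gene above RUNX1, lay 928 kb away and was longer in pEF (log2 fold change -2.26, limma, adjusted p = 0.0102). CLIC4, 48.2 kb below RUNX3, had 49.76, 49.96, 56.6 and 59.2 kb (limma, adjusted p = 0.113). C6H16orf70, 6.72 kb from CBFB, was longer in pEF (6.2, 4.2, 14.0 and 11.6 kb, log2 fold change -1.16, limma, adjusted p = 0.0451), whereas CES3 on the other side of CBFB did not pass (adjusted p = 0.630). CDC5L (limma, adjusted p = 0.345) and CLIC5 (limma, adjusted p = 0.381), the nearest genes outside RUNX2, and SYF2 above RUNX3 (limma, adjusted p = 0.241) did not pass either.

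Genes of like window length whose acetylated share over the 4 libraries lay closest to a member were also listed, as a description. For RUNX1, among 754 candidates, they were WLS at a distance of 5.42 percentage points, PLA2G4A at 7.42 and CUBN at 8.37. For RUNX2, among 804, they were RASGRF2 at 2.94, PDE8B at 4.76 and HRH1 at 4.85. For RUNX3, among 2833, they were GOLGA1 at 3.61, R3HCC1L at 3.67 and WDR26 at 4.54, and for CBFB, among 2760, TAB2 at 4.08, ZNF143 at 4.50 and OTUD4 at 4.91. All 3 genes listed for RUNX1 were farther from it than those listed for the other members were from theirs.

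The rest of the pathway was read by acetylated length from 8 lists, of which 121 of 128 genes matched. Each count below stands beside 31.9% of all genes longer in pgEpiSC, 10.9% in pEF and a median log2 fold change of 0.46. Counts after centring the libraries stand beside 22.8% and 24.6%. Of 32 genes named from the lists, 10 kept their call without each library in turn and 22 lost it without at least 1. For those named with a lost call, the highest adjusted p among these fits is given. With islands of at least 2-fold, 15 of the 32 did not pass: FLI1, HDAC4, CBFA2T3, SRC, WWP1, MAPK3, BMPR1A, BMPR1B, TNFSF11, ALPL, KIT, CSF1R, NTRK2, EOMES and BCL2L11.

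The transcription factors that bind DNA next to RUNX leaned to pEF. Of 15 genes, 6 were longer in pEF and 0 in pgEpiSC, and 9 did not pass (limma; 2 were longer in pgEpiSC at an unadjusted p under 0.05), with a median of -0.70; centring gave 9 and 0. ETS1, an ETS factor that binds together with RUNX1, had 12.0 and 14.0 kb in pgEpiSC and 99.0 and 111 kb in pEF (log2 fold change -2.92, limma, adjusted p = 0.00329) and kept its call without each library. The pEF libraries of ETS1 were far above those of pgEpiSC, as at RUNX1. ERG, an ETS factor of endothelium and blood stem cells, had 18.4, 22.4, 90.2 and 107 kb (limma, adjusted p = 0.00677; up to 0.0573 without pgEpiSC 1, and above the threshold without pgEpiSC 4 or pEF 2 too). ELF4 and FLI1, other ETS factors, were longer in pEF by -2.92 and -0.78 on the log2 scale, but their calls were lost with up to an adjusted p of 0.185 (ELF4, without pEF 2; also lost without pgEpiSC 1 or pEF 1) and 0.115 (FLI1, without pgEpiSC 4; lost without each library).

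Genes of co-repressors and coactivators leaned the other way in length. Of 18 matched, 11 were longer in pgEpiSC, 3 in pEF and 4 did not pass, with a median of 1.16; centring gave 6 and 5, and islands of at least 2-fold gave 3 and 4, beside 7.06% and 16.5% of all genes. HDAC4, a histone deacetylase that binds RUNX2, had 177 and 208 kb in pgEpiSC and 17.4 and 16.8 kb in pEF (log2 fold change 3.41, limma, adjusted p = 0.00290), and did not pass with islands of at least 2-fold (adjusted p = 0.576). CBFA2T2, of the ETO co-repressor family, had 99.5, 98.3, 8.0 and 7.6 kb (log2 fold change 3.51, limma, adjusted p = 0.00290) and passed with stronger islands too (adjusted p = 0.0162). Its relative CBFA2T3 had 71.2, 75.4, 3.2 and 1.4 kb (limma, adjusted p = 0.00695; up to 0.0767 without pgEpiSC 4, and lost without pgEpiSC 1), and a log2 fold change of 0.23 with islands of at least 2-fold (limma, adjusted p = 0.991), against 4.55 with all islands. KAT6B, an acetyltransferase, had 208, 196, 39.4 and 48.9 kb (limma, adjusted p = 0.00656; up to 0.0656 without pgEpiSC 4, and lost without pgEpiSC 1).

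Modifiers of RUNX proteins were split. Of 13 matched, 2 were longer in pgEpiSC, 2 in pEF and 9 did not pass, with a median of 0.23; centring gave 1 and 4. SRC, a tyrosine kinase, had 48.5, 44.7, 12.0 and 5.0 kb (limma, adjusted p = 0.0329; up to 0.179 without pgEpiSC 1, and lost without pgEpiSC 4). MDM2, a ubiquitin ligase, had 6.48, 4.28, 16.1 and 15.1 kb (limma, adjusted p = 0.0284; up to 0.148 without pEF 1, and lost without pgEpiSC 4 or pEF 2). The ligase WWP1 (log2 fold change -0.61) and the kinase MAPK3 (0.81) passed with all libraries (limma, adjusted p = 0.0428 and 0.0302), WWP1 losing its call without pgEpiSC 1, pgEpiSC 4 or pEF 1 (up to 0.190) and MAPK3 without each library (up to 0.101).

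Among 16 genes of TGF-beta and BMP signalling, which feeds into RUNX through SMAD proteins, 5 were longer in pgEpiSC, 4 in pEF and 7 did not pass, with a median of -0.45; centring gave 3 and 5. TGFBR2, the type II receptor of TGF-beta, had 45.6 and 39.4 kb in pgEpiSC and 101 and 95.4 kb in pEF (log2 fold change -1.19, limma, adjusted p = 0.0106; lost without each library, up to 0.0688 without pEF 1). SMAD2, which carries the TGF-beta signal, had 73.2, 68.4, 16.6 and 17.0 kb (log2 fold change 2.01, limma, adjusted p = 0.00295) and kept its call without each library. The BMP receptor BMPR1A had 103, 97.4, 45.1 and 43.1 kb (limma, adjusted p = 0.00692; up to 0.0530 without pgEpiSC 4, and lost without pgEpiSC 1). BMPR1B had 205, 212, 113 and 132 kb (limma, adjusted p = 0.0393; lost without each library, up to 0.133). Its log2 fold change was -0.69, without passing, in islands of at least 2-fold.

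Of 10 matched homeobox, bHLH and other regulators of RUNX2, 5 were longer in pEF, 0 in pgEpiSC (limma; 0 also unadjusted) and 5 did not pass, with a median of -1.78; centring gave 7 and 0. TWIST1, a bHLH factor that binds and restrains RUNX2, had no island in pgEpiSC and 17.1 and 17.0 kb in pEF (limma, adjusted p = 0.00290), and kept its call without each library. HAND2 had 5.58, 2.40, 20.5 and 18.7 kb (limma, adjusted p = 0.0346; up to 0.174 without pEF 1, and lost without pgEpiSC 4 or pEF 2). DLX5, a homeobox activator of RUNX2, had 2.2, 1.2, 9.0 and 9.2 kb (limma, adjusted p = 0.0189; up to 0.102 without pEF 2, and lost without pEF 1). MSX1, a homeobox factor of the limb and skull, had no island in pgEpiSC and 3.8 and 6.6 kb in pEF (limma, adjusted p = 0.0117; up to 0.102 without pgEpiSC 4, and lost without pgEpiSC 1), and with a 50 kb flank its log2 fold change was 0.80 without passing.

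Genes known as RUNX2 targets in the skeleton did not share a direction. Of 18, 6 were longer in pgEpiSC, 4 in pEF and 8 did not pass, with a median of 0.55; centring gave 5 and 6, and islands of at least 2-fold gave 0 and 5 (limma; 1 in pgEpiSC unadjusted). The collagen gene COL1A2 had no island in pgEpiSC and 50.1 and 48.7 kb in pEF (limma, adjusted p = 0.00290), and COL1A1 had 9.69 and 7.91 kb against 38.1 kb in both pEF libraries, which is its whole window (limma, adjusted p = 0.00591; up to 0.0557 without pEF 2, and lost without pEF 1). ALPL, the alkaline phosphatase of bone, also active in other tissues, had 36.8, 32.8, 0.8 and 0.8 kb (log2 fold change 4.31, limma, adjusted p = 0.00300), but -0.16 with islands of at least 2-fold. TNFSF11, which encodes the osteoclast factor RANKL, had 41.2, 43.4, 4.6 and 11.6 kb (limma, adjusted p = 0.0375; up to 0.195 without pgEpiSC 4, and lost without pgEpiSC 1). Both collagens are also among the fibroblast markers.

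Genes known as RUNX1 targets in blood stood near the background. Of 16 matched, 6 were longer in pgEpiSC, 2 in pEF and 8 did not pass, with a median of 0.55; centring gave 5 and 4, and islands of at least 2-fold gave 2 and 3. In ChIP reads, 3 of 15 were higher in pgEpiSC and 3 in pEF (edgeR). KIT, a receptor of stem and germ cells as well as blood, had 41.2, 42.8, 1.6 and 3.8 kb (limma, adjusted p = 0.0114; up to 0.1 without pgEpiSC 4, and lost without pgEpiSC 1). GFI1B had 32.4 kb in both pgEpiSC libraries and no island in pEF (limma, adjusted p = 0.00290), and CSF3R had 22.0, 22.6, 1.6 and 1.44 kb (limma, adjusted p = 0.00429). Both kept their calls without each library. With islands of at least 2-fold, GFI1B passed with a log2 fold change of 0.60 (limma, adjusted p = 0.0312), far below the 5.06 of all islands, CSF3R passed with 2.77 (limma, adjusted p = 0.0169) and KIT did not pass (1.14, limma, adjusted p = 0.169). CSF1R had 28.6, 34.6, 1.0 and 0 kb (limma, adjusted p = 0.0107; up to 0.0923 without pgEpiSC 4, and lost without pgEpiSC 1), but -0.50 with islands of at least 2-fold.

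Of 16 genes known as RUNX3 targets, 4 were longer in pgEpiSC, 2 in pEF and 10 did not pass, with a median of 0.33; centring gave 3 and 5. NTRK2, a neurotrophin receptor, had 33.0, 29.0, 0 and 0 kb (limma, adjusted p = 0.00290), kept its call without each library and did not pass with stronger islands (adjusted p = 0.225). NTRK3, the related receptor, went the other way with 2.4, 0, 19.2 and 20.2 kb (limma, adjusted p = 0.0402; up to 0.186 without pEF 2, and lost without pEF 1). EOMES, a T-box factor of the early embryo and of T cells, had 17.8, 12.8, 0 and 0 kb (limma, adjusted p = 0.00449; 0.0502 without pEF 1). BCL2L11, which encodes the death factor BIM, had 29.8, 27.4, 11 and 10.4 kb (limma, adjusted p = 0.00666; up to 0.0524 without pgEpiSC 4, and lost without pgEpiSC 1), but -0.46 with islands of at least 2-fold.

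Markers of the cell types in which RUNX genes are best known were checked beside these results. Blood cell markers, 10 in all, covered 146 and 146 kb in pgEpiSC and 32.9 and 39.4 kb in pEF. CD34 had no island in any library, HBB, LCP1 and GATA1 had none in pEF, and PTPRC had 0 and 6.0 kb in pEF. SPI1 had 13.6 and 12.6 kb in pEF, CD14 5.4 and 8.2 kb, ITGB2 6.32 and 5.52 kb, TYROBP 4.2 and 3.8 kb and LYZ 3.4 and 3.35 kb. Endothelial markers, 8 in all, covered 113, 116, 116 and 137 kb, with no KDR island in any library and ERG giving most of the pEF length. Osteoblast and chondrocyte markers, 8 in all, covered 103, 88.4, 33.7 and 24.0 kb, with no COL10A1 island in pgEpiSC and no IBSP island in pEF. Longer in pgEpiSC and in pEF were 5 and 0 of the blood markers (limma, 1 in pEF unadjusted), 4 and 1 of the endothelial markers and 4 and 1 of the skeletal markers. These stand beside 31.9% and 10.9% of all genes. With islands of at least 2-fold the counts were 1 and 0, 0 and 3, and 0 and 2, beside 7.06% and 16.5%. The endothelial and skeletal counts thus turned to pEF in stronger islands. The part of other cell types in the RUNX1 and RUNX2 results was not tested.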

How the data were processed

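H3K27ac ChIP-seq island lists of 4 libraries (2 pgEpiSC, 2 pEF) were used. Per the submitters' processing notes, BWA 0.7.15, SAMtools 0.1.19 and SICER 1.1 were used. For filters and duplicate removal, the settings are not given in the sources used here. Deposited count columns hold ChIP and input reads per island, the deposited fold column is their scaled ratio, and the deposited p-value and FDR columns compare each island with its input. The FDR reached 1 in each list, so no FDR limit had been applied. The lists name no build. The RefSeq gene table of Sscrofa11.1 was used for gene names and distances, and 191 scaffold names in the lists carry a prefix of that assembly. It gives no strand, and sequences were not used here. For 17 repeated symbols, NANOG included, the first copy by position was kept. Depth in islands limits precision, and reads there are not independent molecules.

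Acetylated length per gene (islands in the gene ± 10 kb) was compared on the log2(kb + 1) scale with limma 3.58.1, using a trend; the 609 genes with no island stayed in. ChIP reads per gene and per shared region were tested by edgeR 4.0.16 (quasi-likelihood, TMM, filterByExpr), with the SE taken from the fold change and the F statistic. Benjamini-Hochberg adjustment ran over all features, threshold 0.05. Alternatives used DESeq2 1.42.0, other flanks, pseudocounts, island strengths, scalings and leaving out each library. R 4.3.3 and Python 3.11.15 were used. The tests were also run on simulated data, in which reads per gene were less variable than here. That run does not give the error rates of the tests on these data. The members, the 8 pathway and 5 marker lists and the tests were chosen with earlier results of these data known. Named genes were the members, their neighbours, up to 4 called genes per pathway list with the largest difference in kb, and the 3 genes most like each member (Euclidean distance of the acetylated share, window 0.75 to 1.33 times as long). TLE1, TLE5, ITCH, CDK6, BAPX1, IL3 and PF4 did not match by symbol; SPI1 stands in 2 lists, and 1 listed gene is not reported here.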

Additional observations from a re-analysis of the deposited data

How the results depend on the processing

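RUNX1 kept its direction and call in length under each alternative other than leaving out a pEF library, and in reads under each but islands of at least 2-fold, where its log2 fold change was -7.17 without passing. With islands of at least 2-fold, RUNX2 also lost its calls (-4.23 in length, -4.21 in reads), RUNX3 reversed in length (-3.90) and passed in reads (-13.06, a fitted value with no pgEpiSC reads and so no bound). With that setting 2 shared regions were tested and 0 were lower in pgEpiSC, and fewer islands were left. Of the 8 member ends, 1 then had an island within 2 kb in both pgEpiSC libraries and 4 in both pEF libraries. The shares over all gene ends were 30.5% and 46.7%. Ends with an island in both libraries of 1 type and none of the other numbered 0 for pgEpiSC and 3 for pEF, against 2.57% and 11.8%. With no flank, RUNX2 length did not pass (-0.90) and CBFB reversed (-0.066). With a 50 kb flank, RUNX3 length passed (0.84), and CBFB (-0.53), MDM2 (0.17) and MSX1 (0.80) reversed. RUNX3 reversed with an FDR under 1e-10 (-2.08), and RUNX3 (-0.54) and CBFB (-0.46) with libraries centred. RUNX3 reads passed with input subtracted (-1.19). Of the genes named from lists, ALPL (-0.16), BCL2L11 (-0.46), BMPR1B (-0.69) and CSF1R (-0.50) reversed with islands of at least 2-fold, and with another 11 they made up the 15 of 32 that did not pass. DESeq2 called shared region 51.0 to 61.8 kb of RUNX2 lower in pgEpiSC (-1.01). The cause of each change was not tested.

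Leaving out each library in turn, with the lone library of a type assumed to vary like the others, gave log2 fold changes in length of -2.80 to -2.21 at RUNX1, -0.93 to -0.61 at RUNX2, -0.14 to 0.32 at RUNX3 and 0.03 to 0.32 at CBFB. In reads they were -3.77 to -3.23, -2.09 to -1.94, -0.53 to -0.12 and -0.11 to 0.22. Shared regions lower in pgEpiSC numbered 3 to 5, and the RUNX2 region at 170 to 179 kb ranged from -0.62 to 0.24. Genes longer in pgEpiSC numbered 1684 to 2188 (5196 with all libraries) and in pEF 548 to 829 (1773), and genes with more reads 2032 to 3947 and 1957 to 3000. Genes longer in pgEpiSC and pEF numbered 1150 and 2692 with islands of at least 2-fold, and 3853 were longer in pEF with libraries centred; genes with more reads in pgEpiSC numbered 1753 with islands of at least 2-fold. No paired analysis was possible because the 2 types share only the replicate number 1. With 2 libraries per type, small differences at RUNX3 and CBFB were not detectable.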
